A study of Xenopus laevis with 24 samples.

Results

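Xenopus laevis foregut explants kept for 16 h in BMS493, a blocker of retinoic acid receptors, differed widely in RNA from control explants. All were at tailbud stage NF25 of the Nieuwkoop and Faber series. The comparison sets 3 libraries of explants kept in BMS493 against 3 libraries of control explants, all harvested at NF25, and was chosen by the labels alone. These are 6 of the 24 libraries of the series. Every gene of the table entered, and 28313 of 44478 genes had enough counts to be tested.

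All explants were foregut endoderm and mesoderm, cut from wild-type embryos of stock NXR_0031 at NF15 and cultured at 15 °C. Each library pooled 8 explants, and the labels call the 3 pools of a condition biological replicates. Parents of the embryos are not named, so the tests measure the spread among pools. Control explants carried 2.5 ng of a mismatch morpholino and stood in 0.1% DMSO. Treated explants received 250 nM BMS493 from the moment of dissection, and the labels do not say whether they also carried the mismatch morpholino or DMSO. A treatment difference can therefore not be told apart from one due to the mismatch morpholino or to DMSO, if only the controls had either. For comparison, 4 further groups are used. BMS493 and control explants at NF33 were kept for a further 16 h. The rfx6-MO explants at NF25 came from embryos injected with 2.5 ng of a morpholino that blocks translation of the transcription factor Rfx6. The labels list no DMSO for these explants. Control explants at NF38 give the later course of normal development.

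Retinoic acid is made from vitamin A and acts through retinoic acid receptors, nuclear receptors that bind DNA together with retinoid X receptors. With ligand, the receptors recruit coactivators to their target genes, and without it they hold corepressors there. BMS493 is an inverse agonist of these receptors, which strengthens their hold on corepressors. In vertebrate embryos retinoic acid is known to set anterior and posterior identity, in part through the Hox genes, and in the foregut it acts on the fields of the lung, pancreas and liver and on the surrounding mesoderm.

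The NF25 controls held 19433955 to 23181310 counts and the BMS493 libraries 25345766 to 28229445, so every BMS493 library was deeper than every control. Libraries of the whole series held 19433955 to 31005048. The tables list genes by number without symbols, and 0 of the 44478 identifiers matched a RefSeq gene table of assembly Xenopus_laevis_v10.1 with 44456 genes. No gene is therefore named, no role is given to one, and neither foregut markers nor retinoic acid target genes could be looked up in these files. BMS493 replicate 3 stood apart in 17 tested identifiers numbered 11806 to 11823, which took 9.37% of its counts, against 4.02% and 4.3% in the other BMS493 libraries and 3.41% to 6.13% in controls. The counts of calls and the named genes were recomputed without that library. In rfx6-MO explants at NF25 the same identifiers took 2.95%, 10.1% and 5.38% of the counts, and no rfx6-MO library was left out. Of the 17, 13 had exactly the counts of another gene in every library, so their reads may be divided between copies.

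Many genes differed by a small amount and a smaller number by a large one. At NF25, 4559 genes (16.1% of those tested) were higher and 4178 (14.8%) lower in BMS493 explants, by edgeR's quasi-likelihood test at a Benjamini-Hochberg adjusted p of 0.05. Of these 8737 genes (30.9%), 61.58% changed by less than 1.5-fold. A change of at least 2-fold was reached by 1085 higher genes (3.83%) and 679 lower genes (2.4%). A stricter test, which asks whether the change exceeds 1.5-fold, called 797 genes higher (2.81%) and 521 lower (1.84%).

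By fitted fold, the largest changes were similar in number in both directions. Changes of more than 8-fold numbered 122 higher and 106 lower genes, and changes of 4- to 8-fold numbered 173 and 147. Between 2- and 4-fold the higher genes were more numerous, with 790 against 426. In 1626 of the 1764 genes changed at least 2-fold (6.23%), the 3 BMS493 libraries did not overlap with the 3 controls. Over all tested genes 39.4% did not overlap, with BMS493 above in 20.4% and below in 18.9%. Without BMS493 replicate 3, 1096 genes were higher and 641 lower by at least 2-fold.

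**Figure D1:**
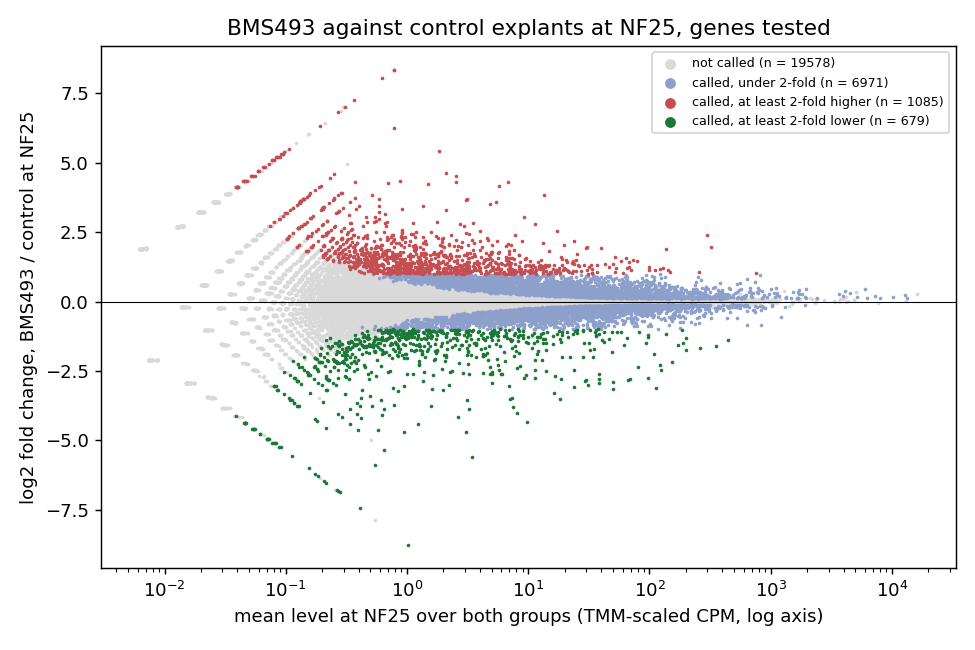
Each point is a tested gene, with its mean level over both groups at NF25 (TMM-scaled CPM, log axis) against its fitted log2 fold change. The 1085 red and 679 green genes fan out at low levels, while most called genes above 10 CPM lie within 2-fold of 0, and the outer straight lines are genes at 0 in one group, whose fitted values depend on the prior count.

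The division of called genes between the directions depended on how libraries were scaled. With DESeq2 size factors instead of TMM (trimmed mean of M-values), 5037 genes were higher and 3678 lower. Scaled by total counts, 3608 genes were higher and 5164 lower, and limma on log2(TPM + 1) gave 3148 and 4346. The count of genes changed at least 2-fold also fell under that last setting, to 210 higher and 230 lower, on a scale that by its construction understates the change of weakly expressed genes.

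Genes changed at least 2-fold were more often weakly expressed than all tested genes, and to a like degree in both directions. Levels here are CPM, which are counts scaled to a common library total with TMM and not corrected for length. By the mean of both groups, 48.3% of the higher genes and 50.1% of the lower genes lay under 1 CPM, beside 25.1% of all tested genes. At 10 CPM or more there were 121 higher genes (11.2%) and 100 lower genes (14.7%), beside 43% of all. The thresholds bear on this, since genes with few counts pass the test mostly with large fitted changes. At 0.1 to 1 CPM in controls, 513 of 621 genes called higher and 262 of 270 called lower reached 2-fold. At 10 to 100 CPM, 67 of 1833 and 113 of 2358 did. The level on 1 side of the comparison is no separate measure, since the fold that chose the genes contains it. Median levels moved from 0.543 CPM in controls to 1.55 CPM in BMS493 for the higher genes, and from 1.47 to 0.501 CPM for the lower genes. The higher genes gained 6133 CPM in sum and the lower genes lost 6685 CPM. In each direction 10 genes carried about the same part of it, 34.9% of the gain and 34.5% of the loss. In whole explants, fewer cells of a type and less RNA per cell cannot be told apart.

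A small group of genes was detected on one side of the comparison alone. Of 567 tested genes with 0 counts in all 3 control libraries, 312 had counts under BMS493. Of these, 43 (13.8%) were called higher. Their BMS493 levels were low, with a median of 0.146 CPM and a highest value of 1.56 CPM. In the other direction, 178 of 433 genes with 0 counts in all 3 BMS493 libraries had counts in controls. Of these, 36 (20.2%) were called lower, with a control median of 0.144 CPM and a highest value of 2.05 CPM. The choice of genes fixed their direction in both cases, so neither share can be compared with that of all tested genes. A count of 0 in all libraries of a group allows a level of up to 0.0479 CPM in controls and 0.0397 CPM in BMS493 (3 counts over the group). These limits cover counting error only. All 3 BMS493 libraries were deeper than the 3 controls, and the effect of depth on the 312 and 178 genes was not tested.

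Named genes were sought among those called, changed at least 2-fold and not overlapping between groups. The 4 of these with the largest CPM differences, 2 in each direction, had tight replicates. XBXL10_1g38933 had 498, 511 and 478 CPM in the 3 control libraries and 978, 1107 and 961 CPM under BMS493. Its difference was 1.03 on the log2 scale with an SE of 0.05 (edgeR adjusted p = 9.93e-23). At NF33 the same gene had fallen to 18.9 ± 1.09 CPM in controls and 46.8 ± 2.71 CPM under BMS493 (SD, n = 3). It remained higher under BMS493, by 1.31 on the log2 scale.

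XBXL10_1g24532 had 94.0, 95.4 and 95.8 CPM in controls and 498, 522 and 489 CPM under BMS493. The difference was 2.40 on the log2 scale with an SE of 0.05 (edgeR adjusted p = 3.38e-51). In controls it was nearly gone at NF33, with 4.46 ± 0.745 CPM, whereas BMS493 explants had 296.7 ± 14.6 CPM (SD, n = 3). At NF33 the difference was 6.06 on the log2 scale with an SE of 0.07 (edgeR adjusted p = 4.5e-68).

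XBXL10_1g35010 had 627, 655 and 637 CPM in controls and 246, 255 and 240 CPM under BMS493, a difference of -1.37 on the log2 scale with an SE of 0.05 (edgeR adjusted p = 9.57e-39). Its level also dropped with stage, to 7.80 ± 1.08 CPM in NF33 controls and 3.53 ± 0.487 CPM in NF33 BMS493 explants (SD, n = 3). The fold between the groups stayed near that of NF25, at -1.14 on the log2 scale, and the change of the effect did not pass the test (0.23, edgeR adjusted p = 0.128).

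XBXL10_1g42769 had 536, 533 and 512 CPM in controls and 174, 173 and 177 CPM under BMS493, a difference of -1.59 on the log2 scale with an SE of 0.04 (edgeR adjusted p = 9.2e-44). At NF33 the groups lay close together, at 98.4 ± 2.15 CPM in controls and 107 ± 1.45 CPM under BMS493 (SD, n = 3). The log2 difference there was 0.12 (edgeR adjusted p = 0.0372).

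**Figure D2:**
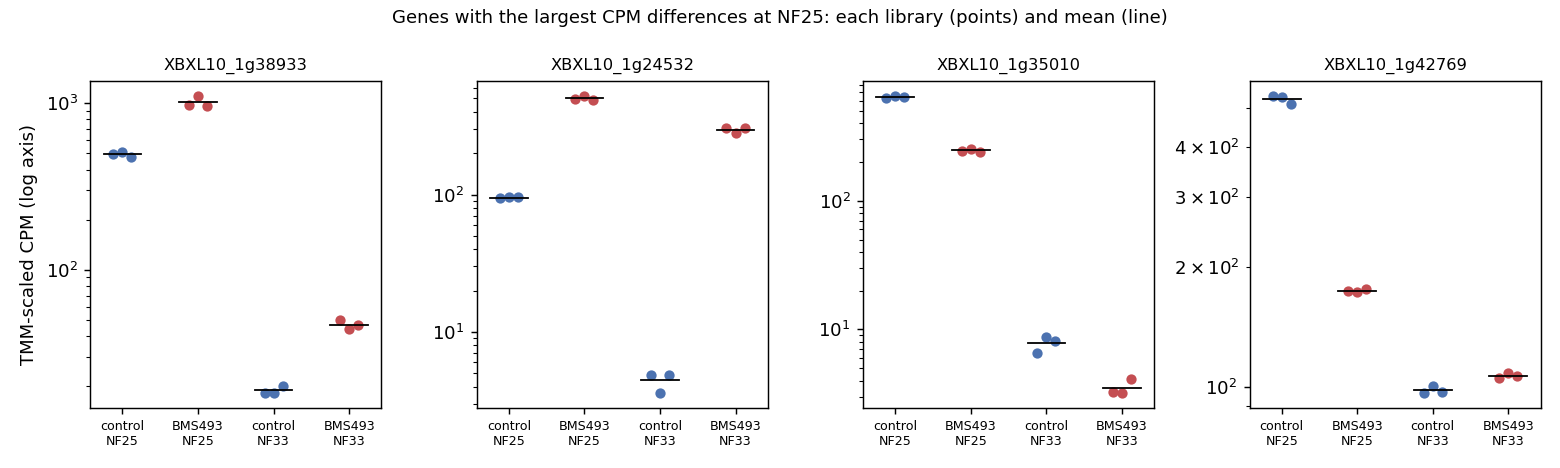
Points are the libraries of 4 groups and lines their means, on log axes of TMM-scaled CPM that differ between panels. The genes have the largest CPM differences among non-overlapping genes called and changed at least 2-fold at NF25. XBXL10_1g24532 stands far above control under BMS493 at NF33, at a mean of 296.7 CPM, and XBXL10_1g42769 has nearly the control level there.

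The rfx6-MO explants of the same stage were measured against the same 3 controls, so the treatments are set side by side without a test of their likeness. XBXL10_1g38933 stood at 931 ± 9.33 CPM in rfx6-MO explants, near its BMS493 level. XBXL10_1g24532 stood at 66.4 ± 2.49 CPM, below the controls. XBXL10_1g35010 and XBXL10_1g42769, both lower under BMS493, stood above the controls in rfx6-MO explants, at 1085 ± 38.5 and 1128 ± 57.2 CPM (SD, n = 3).

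Changed genes often carried neighbouring identifier numbers. The files do not say whether the numbers follow the genome, and the description below uses the numbers alone. Of the genes at least 2-fold lower, 13.1% had another such gene at the number directly before or after, against 3.56% of all tested genes. Of the genes at least 2-fold higher, 12.4% did, against 5.4% of all. Runs of at least 4 such genes of the same direction, with steps of at most 5 numbers, were collected as stretches. There were 7 stretches of lower genes with 48 members and 13 stretches of higher genes with 60. Outside the stretches the shares were 9.67% against 3.38% for lower genes and 9.27% against 5.13% for higher genes. The stretches were chosen on these values, so they are described and not tested.

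Much of the lost RNA came from a pair of abundant stretches with numbers close to each other. In the stretch from 34800 to 34829, 12 of 16 tested genes were at least 2-fold lower. Their stretch summed to 1053, 1037 and 1005 CPM in controls and 222, 211 and 218 CPM under BMS493, a 4.76-fold lower level. In the stretch from 34994 to 35013, all 18 tested genes were called lower and 14 of them by at least 2-fold. The sum was 2701, 2743 and 2687 CPM in controls and 1111, 1159 and 1069 CPM under BMS493, 2.44-fold lower. Together the 26 genes lower by at least 2-fold held 32% of the loss of all 679 lower genes.

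Both stretches were far less abundant at the later stage. Their sums in NF33 controls were 30.6 ± 0.584 and 105 ± 4.42 CPM (SD, n = 3). Under BMS493 at NF33 they were 22.04 ± 1.75 and 166 ± 3.23 CPM, so the sum of the second stretch then stood above its controls. Single genes differed. Of the 16 and 18 tested genes, 1 and 7 were called higher and 7 and 3 lower at NF33. Over all tested genes the shares were 12.8% higher and 16.2% lower. XBXL10_1g35010, described above, belongs to the second stretch and stayed lower at NF33, by -1.14 on the log2 scale. In rfx6-MO explants at NF25 the sums were 1786 ± 17.4 and 4618 ± 74.8 CPM, above the shared controls. The ratio of count to TPM, which follows effective length, had medians of 0.428 and 0.466 of the typical gene in these stretches. Lengths varied within them, and 3 of 16 and 7 of 18 genes lay above the typical length.

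In 3 stretches with still lower median lengths the difference went the other way. In the stretch from 41015 to 41018, all 4 genes were higher under BMS493, and the sum went from 0.845, 0.783 and 0.585 CPM in controls to 12.1, 15.0 and 15.2 CPM, 19.1-fold higher. In the stretch from 41029 to 41035, 4 of 6 tested genes were at least 2-fold higher and the sum went from 14.2 ± 1.71 to 55.3 ± 3.32 CPM. In the stretch from 43750 to 43764, 8 of 13 were, and the sum went from 33.0 ± 1.63 to 113 ± 5.58 CPM, with 1 gene called lower (SD, n = 3). Their median relative lengths were 0.227, 0.197 and 0.216, with 2 of 13 genes of the last one above 1.

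All 3 of these stretches were abundant at the later stage. Their sums in NF33 controls were 989.7 ± 18.5, 1321 ± 11.6 and 2591 ± 24.9 CPM. BMS493 explants at NF33 had 1284 ± 76.4, 1697 ± 86.6 and 3403 ± 209 CPM. At NF33, 4 of 4, 3 of 6 and 7 of 13 tested genes were called higher and 0 lower, beside 12.8% higher and 16.2% lower of all tested genes. In sum, the rfx6-MO explants at NF25 stayed near the controls, with 0.558 ± 0.0518, 16.8 ± 1.83 and 28.9 ± 3.02 CPM (SD, n = 3). Of their tested genes, 0, 1 and 0 were called higher and 0, 1 and 2 lower in rfx6-MO explants. Of all tested genes, 18% were called higher and 16.6% lower in that comparison. In the stretch from 43750 the median log2 fold change of rfx6-MO explants was -0.94, so the sum hides lower levels of single genes.

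**Figure D3:**
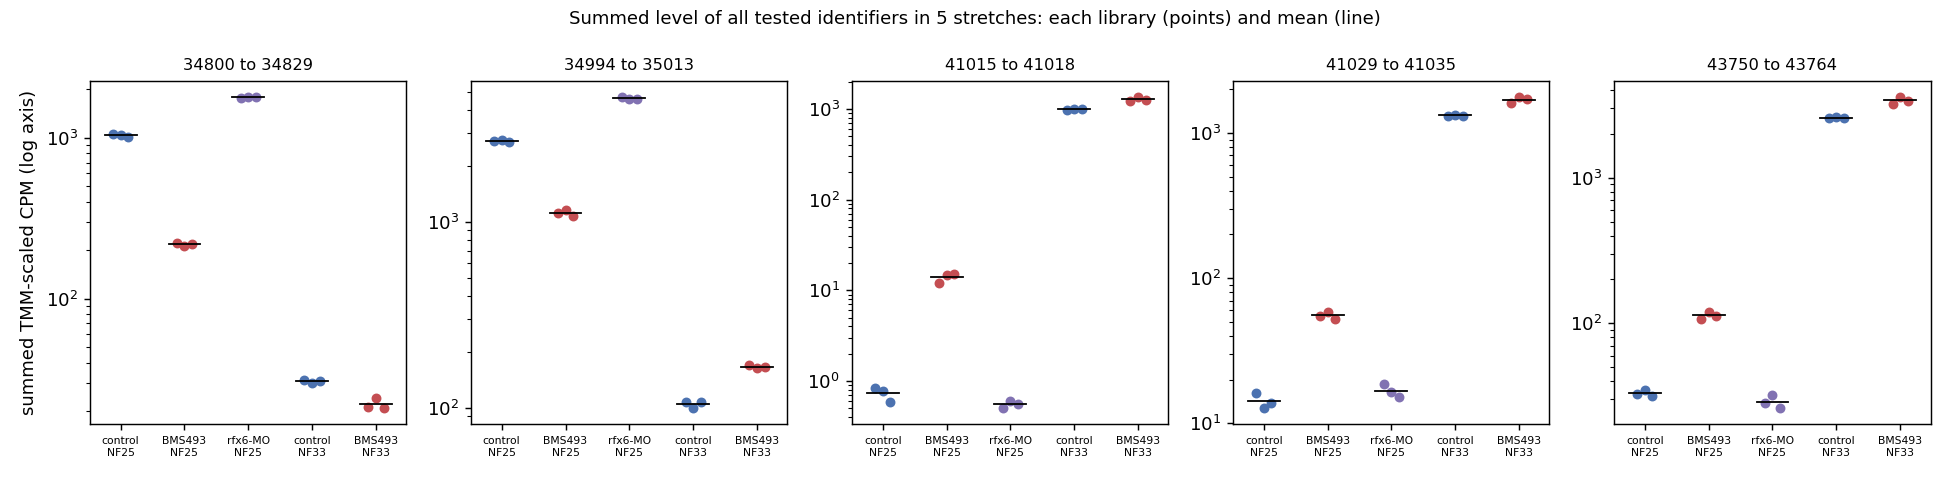
Points are libraries and lines group means of the summed level of all tested identifiers in a stretch (TMM-scaled CPM, log axes that differ between panels). The left 2 stretches are lower under BMS493 at NF25 and higher in rfx6-MO explants, and the right 3 are higher under BMS493 at NF25 and reach 989.7 to 2591 CPM in NF33 controls.

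Seen over longer runs, some stretches held genes of both directions in an ordered way, and most of these contain stretches already counted above. Where at least 6 genes changed at least 2-fold lay in 1 stretch, with at least 2 of each direction, the lower ones came together at one end and the higher ones at the other. This was so in all 8 such stretches, which hold 79 tested genes, 26 of them lower and 29 higher. In number order 7 of the 8 began with the lower genes and 1 with the higher genes, and each changed direction once. These stretches were picked by this mixture, so the order is a description of these 8 and carries no test. With limma on log2(TPM + 1), 21 genes of these stretches reached 2-fold, in place of 55.

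The stretch from 27088 to 27099 shows the pattern. Its numbers up to 27092 summed to 76.9, 74.4 and 74.0 CPM in controls and 16.2, 16.6 and 16.4 CPM under BMS493. Its numbers from 27093 on summed to 8.30, 7.73 and 8.82 CPM in controls and 22.2, 21.9 and 22.9 CPM under BMS493. In neither part did the groups overlap. In the stretch from 42286 to 42295 the first 6 genes, up to 42291, were all lower, from 79.6, 81.7 and 78.8 CPM in controls to 20.1, 22.1 and 23.3 CPM. The last 4 were all called higher, 2 of them by at least 2-fold.

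Higher ends of 4 of these stretches, picked with their values known, were weakly expressed in controls and raised under BMS493. Beside the one from 27093 on, the genes from 28967 to 28970 went from 4.28 ± 0.332 to 13.4 ± 1.29 CPM. Those from 40728 to 40732 went from 1.19 ± 0.217 to 5.76 ± 0.239 CPM, and those from 43527 to 43530 from 0.947 ± 0.236 to 4.49 ± 0.840 CPM (SD, n = 3). In rfx6-MO explants of the same stage the 4 sums were 72.9 ± 3.20, 64.9 ± 2.86, 37.8 ± 2.38 and 25.4 ± 1.89 CPM, higher still. Each of the 7, 4, 5 and 4 tested genes of these 4 ends was called higher in rfx6-MO explants. Over all tested genes, 18% were called higher and 16.6% lower there. That comparison shares its controls with the one that chose the genes, so these calls are a description. The higher end from 3912 to 3918, also a stretch of higher genes, went from 5.165 ± 0.159 to 10.6 ± 1.24 CPM under BMS493. In rfx6-MO explants it stood at 8.08 ± 1.32 CPM, with 2 of 7 tested genes called higher and 0 lower (SD, n = 3). At the higher end from 43601 to 43603, the rfx6-MO log2 fold changes at NF25 were 0.47, 0.12 and -0.19. Number 43603 was not weakly expressed, at 33.8 CPM in NF25 controls and 70.6 CPM under BMS493. At the higher ends from 15145 to 15147 and from 42292 to 42295, the rfx6-MO log2 fold changes were 0.81 to 3.28 and 1.69 to 3.10.

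At NF33 the last number of each of the 4 stretches picked above was nearly or wholly silent in controls and detected under BMS493. Number 27099 had 0.0487 CPM in NF33 controls and 3.10 CPM under BMS493. Numbers 28970, 40732 and 43530 had 0 counts in all NF33 controls and 2.35, 2.19 and 1.74 CPM under BMS493. All 4 were called higher at NF33 (edgeR adjusted p between 8.53e-21 and 4.4e-11). Other genes of these higher ends varied. At NF33, 4 of 7, 3 of 4, 3 of 5 and 2 of 4 tested genes were called higher, and 1, 0, 1 and 2 lower. Of all tested genes, 12.8% were called higher and 16.2% lower there. The sums of the ends there were 11.5, 1.58, 12.2 and 5.90 CPM in controls and 14.9, 10.5, 12.5 and 7.02 CPM under BMS493. At the lower end of another stretch, all 6 genes from 42286 to 42291 were called lower again at NF33. They summed there to 87.9 ± 1.82 CPM in controls and 14.3 ± 1.40 CPM under BMS493 (SD, n = 3). The higher end of that stretch was not called higher again. Of the 10 tested genes from 42286 to 42295, 9 were called lower and 0 higher at NF33.

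**Figure D4:**
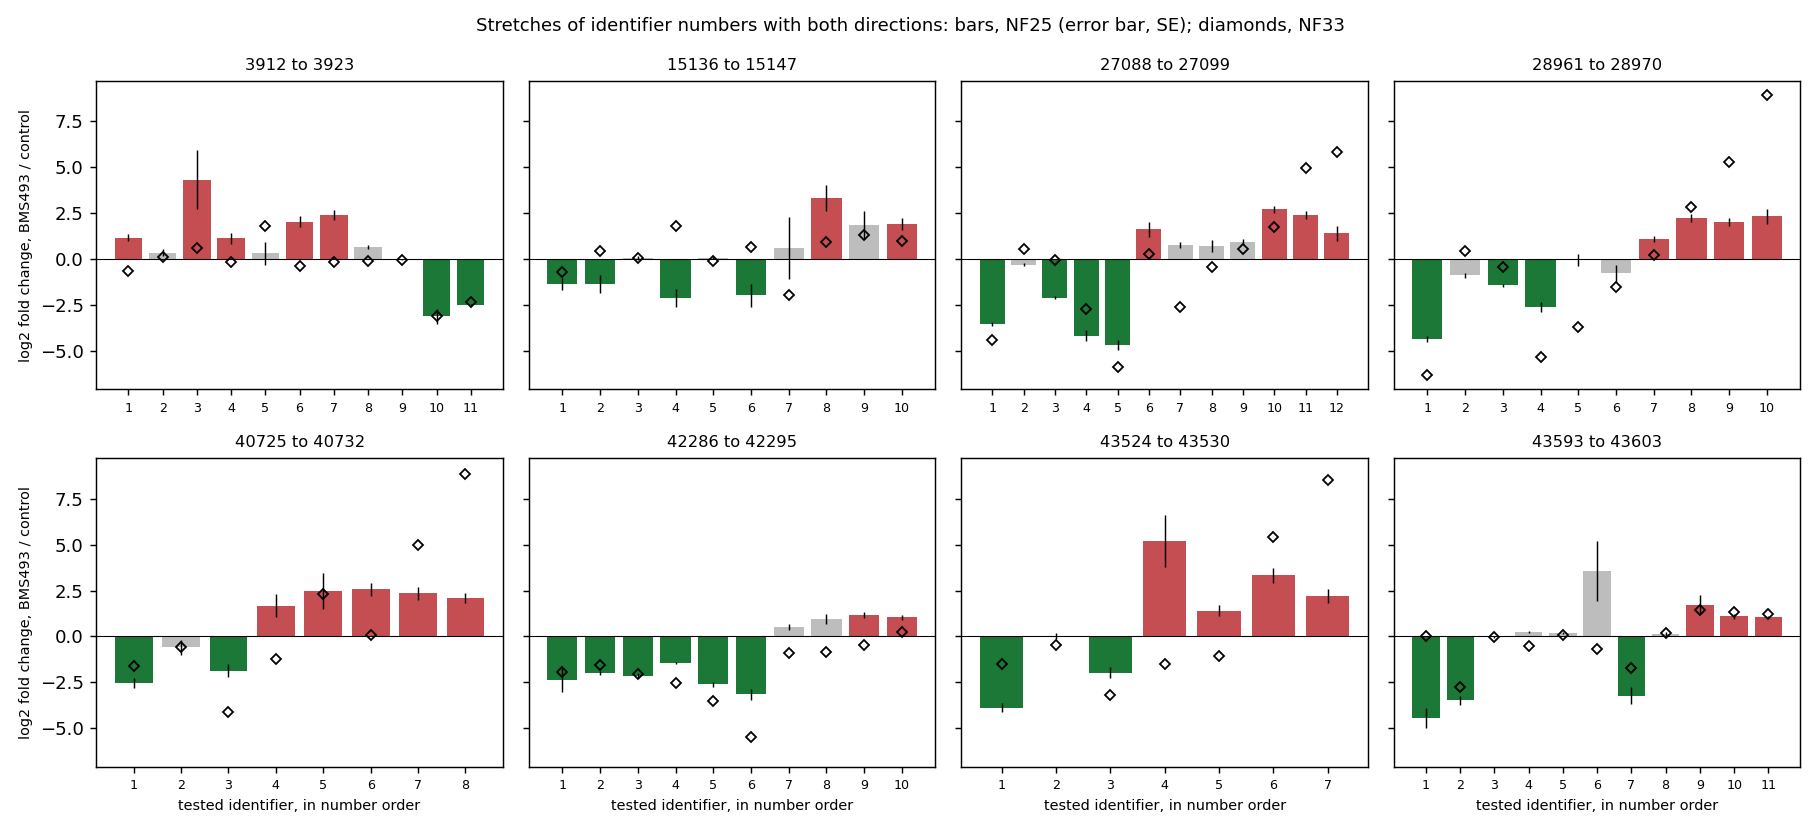
Each bar is the fitted log2 fold change of a tested identifier at NF25 with its standard error, in number order within each of the 8 stretches, red where called at least 2-fold higher, green where at least 2-fold lower and grey otherwise. Diamonds give the same at NF33, and each stretch changes direction once between its green and red bars, while bars with wide errors rest on few or 0 counts in one group.

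Near-identical gene copies, which the tetraploid Xenopus laevis has in number, could share reads within a stretch. Of the 41 tested genes with the counts of another gene in every library, 0 lay in the abundant stretches or in those with both directions, and 3 lay in 1 stretch of higher genes, from 31943 to 31949. That stretch has 4 genes at least 2-fold higher but 3 distinct sets of counts, so it rests on a repeated gene. Copies that share only part of their reads were not identified.

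By NF33 many of the large NF25 changes were no longer called. The NF33 libraries are separate from those that chose the genes. Of the 1085 higher genes, 373 (34.4%) were called higher again at NF33, 128 (11.8%) were called lower and 584 (53.8%) were not called. Over all tested genes, 12.8% were called higher and 16.2% lower at NF33. Of the 679 lower genes, 283 (41.7%) were called lower again, 61 (8.98%) higher and 335 (49.3%) not called. The median log2 fold change went from 1.51 at NF25 to 0.25 at NF33 for the higher genes and from -1.69 to -0.48 for the lower genes, beside -0.02 for all tested genes at NF33. Both lists were chosen by their NF25 fold, which enlarges the NF25 medians. The size of the fall is therefore a description and no measure of a fading effect.

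Among lower genes the share called again was smallest for the smallest changes. It was 23.3% for changes under 1.5-fold, 34.4% up to 2-fold, 39.2% up to 4-fold, 47.6% up to 8-fold and 43.4% above. Among higher genes the share was 21.8% for changes under 1.5-fold, and between 32.4% and 36.1% in the 4 classes from 1.5-fold up. Genes that reached 2-fold in the same direction at both stages numbered 190 higher, which is 17.5% of the NF25 list and 16.1% of the NF33 list. The 203 lower ones are 29.9% and 23.1% of their lists. With limma on log2(TPM + 1) the genes called again numbered 91 higher and 118 lower, from its shorter NF25 lists, and with log2(TPM + 0.1) 218 higher genes were called again.

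**Figure D5:**
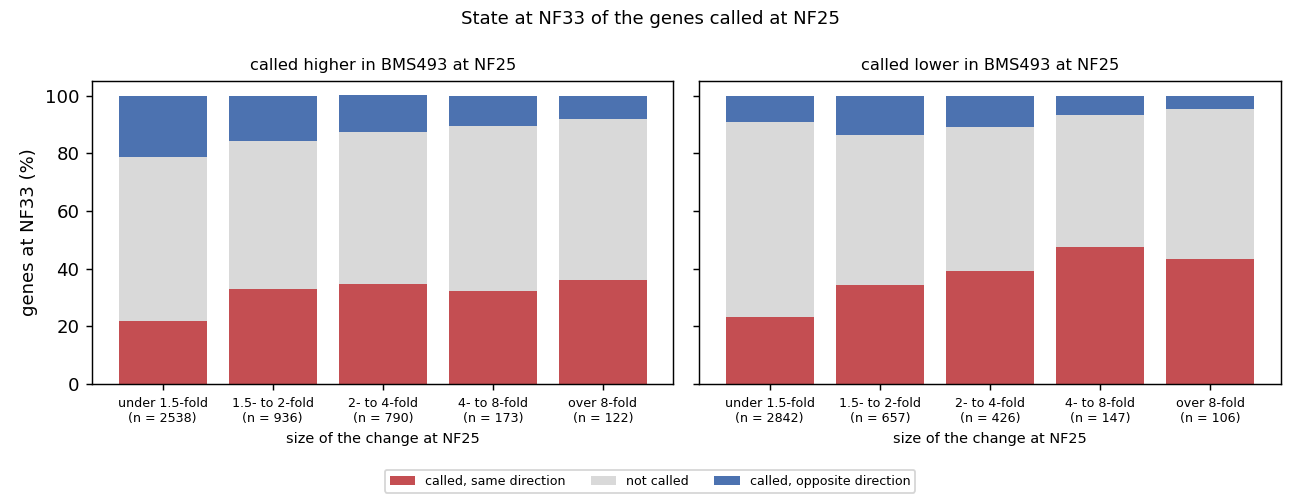
Bars divide the genes called at NF25 by their call at NF33 (percent of genes), for 5 sizes of the NF25 change in each direction, with the number of genes under each bar. The share called again in the same direction is 21.8% to 36.1% for higher genes and 23.3% to 47.6% for lower genes.

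The change of the BMS493 effect between the stages was tested as such. It passed for 7475 genes (26.4%), with 3279 moving up and 4196 moving down relative to control at NF33. The balance turned with the scaling, to 4120 up and 3171 down with total library size and 3720 up and 2910 down with limma on log2(TPM + 1). Among the higher genes 695 (64.1%) passed, 655 of them with a weaker or opposite effect and 40 with a stronger one. Among the lower genes 374 (55.1%) passed, 345 weaker or opposite and 29 stronger. This test contains the NF25 values that chose the genes, so the shares are a description. The labels' batch tag repeats the culture stage, so stage and batch cannot be told apart here.

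The genes with the largest changes of effect were at or near 0 counts in one group. XBXL10_1g41015, the first gene of a stretch given above, had 0 counts in all 3 NF25 controls and 1.63, 1.32 and 1.71 CPM under BMS493, at least 32.5-fold higher than the control limit. At NF33 it was abundant in both groups, at 258 ± 5.79 CPM in controls and 340.1 ± 20.3 CPM under BMS493 (SD, n = 3). The change of its effect was -7.95 on the log2 scale (SE 0.67, edgeR adjusted p = 5.46e-16).

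XBXL10_1g33576 had 1.45, 1.25 and 0.720 CPM in controls and 3.598, 2.76 and 2.45 CPM under BMS493 at NF25, a difference of 1.37 on the log2 scale with an SE of 0.29 (edgeR adjusted p = 0.00013). At NF33 it had 0 counts in all 3 controls, while BMS493 explants had 2.68 ± 0.0484 CPM (SD, n = 3). The gene was thus detected at both stages under BMS493, and in controls at NF25 but not at NF33 (edgeR adjusted p of the change = 1.51e-09).

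XBXL10_1g8492 had 0.516, 0.522 and 0.540 CPM in controls, 33 counts in all, and 0 counts under BMS493, at least 13.3-fold lower. At NF33 it had 0 counts in controls and 2 counts in 1 BMS493 library. XBXL10_1g34996, a member of the abundant stretch from 34994, had 9 counts in the NF25 controls and 1 under BMS493, so that controls stood 10.8 times above (95% interval from counting error 1.504 to 476). Its NF25 call (edgeR adjusted p = 0.0151) was lost without control replicate 2 (0.136), BMS493 replicate 1 (0.0717) or BMS493 replicate 2 (0.0628). At NF33 it stood at 0.0120 CPM in controls and 0.977 ± 0.202 CPM under BMS493, and NF38 controls had 10.9 ± 0.891 CPM (SD, n = 3).

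The later course of the same genes in normal development was read from NF33 and NF38 controls, which lie outside the NF25 comparison. From NF33 to NF38 10.5% of all tested genes rose and 6.34% fell at least 2-fold in controls (edgeR adjusted p of 0.05). Of the genes at least 2-fold higher under BMS493 at NF25, 226 (20.8%) rose and 155 (14.3%) fell. Of those at least 2-fold lower, 140 (20.6%) rose and 79 (11.6%) fell. Both lists thus held genes that later rose and genes that later fell. Both also held a larger share of weakly expressed genes than all tested genes, which was not allowed for here. Among genes called at NF25 with changes under 1.5-fold, 3.27% of the higher and 1.62% of the lower ones rose, and 10.5% and 3.2% fell.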

How the data were processed

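Stranded mRNA libraries were made, per the labels' protocols. The authors deposited a table of expected counts, stored as whole numbers, and a table of TPM. RSEM 1.3.0 and Bowtie2 appear in the submitters' processing notes. For the genome build, the annotation and the strand setting, the sources used here give nothing. The row without a gene identifier (0 counts) was dropped.

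The expected counts went into edgeR 4.0.16 (R 4.3.3), with TMM scaling, filterByExpr (minimum count 10, minimum total 15), 1 mean per group over all 24 libraries in 8 groups, a robust quasi-likelihood fit and Benjamini-Hochberg adjustment over 28313 genes. The filter uses all groups, and 255 tested genes had 0 counts in all 6 NF25 libraries. Changes beyond 1.5-fold used glmTreat. Each SE was derived as the absolute log2 fold change over the square root of the F statistic of the quasi-likelihood test. The fit was tested on simulated data. Replicates differed by a chi-square of 2.44 to 28.5 per gene, so none was a duplicate. Named genes were the 2 higher and 2 lower with the largest CPM difference among non-overlapping genes changed at least 2-fold, and the 2 and 2 with the largest change of effect by NF33. Members, lists and stretches were chosen with earlier results of these data known. Planned gene lists needed symbols and were not run. Alternatives were DESeq2 1.42.0, its size factors, total library size, another TMM reference, no filter, the 6 libraries alone, a replicate block, each library left out, limma 3.58.1 on log2(TPM + 1) and log2(TPM + 0.1), and, chosen after seeing the data, a filter on the 6 NF25 libraries.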

Additional observations from a re-analysis of the deposited data

Results flagged for a closer look

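The effect of BMS493 differed between NF25 and NF33 in 7475 tested genes, by edgeR's test of the difference itself. Among the named genes this test passed for 7, whose log2 change of effect, NF33 less NF25, is given with its adjusted p. XBXL10_1g38933 changed by 0.28 (edgeR adjusted p = 0.00979), a small move beside an effect of 1.03 at NF25. XBXL10_1g24532 changed by 3.65 (edgeR adjusted p = 4.78e-46), with 503 CPM at NF25 and 296.7 CPM at NF33 under BMS493 and 95.1 and 4.46 CPM in controls. XBXL10_1g42769 changed by 1.71 (edgeR adjusted p = 1.02e-35), from a lower level under BMS493 to nearly the control level.

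The other 4 rest on a group at or near 0 counts, so the size of the change depends on the prior count of the fit. XBXL10_1g41015 changed by -7.95 (edgeR adjusted p = 5.46e-16) and XBXL10_1g33576 by 7.76 (edgeR adjusted p = 1.51e-09). XBXL10_1g8492 changed by 9.41 (SE 2.71, edgeR adjusted p = 0.00574), with 2 counts in all at NF33, and its NF33 difference alone did not pass (edgeR adjusted p = 0.303). XBXL10_1g34996 changed by 8.89 (edgeR adjusted p = 3.24e-08). The comparison of stages runs across the labels' batch tag, which repeats the stage.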

How the results depend on the processing

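Of the recomputed values, 329 kept their direction and their side of the threshold or stayed within 1.5 times, 7 counts moved further, 3 values of XBXL10_1g34996 lost their call when 1 library was left out, and 0 reversed. With limma on log2(TPM + 1), genes changed at least 2-fold numbered 210 higher and 230 lower, those called again at NF33 91 and 118, and those in stretches with both directions 21 in place of 55. With limma on log2(TPM + 0.1), 218 higher genes were called again and the effect moved down in 2737 genes. Leaving out 1 library at a time gave 7444 to 7942 called genes, with 1027 to 1103 higher and 602 to 663 lower by at least 2-fold. Of the called genes, 52.2% were higher, with a range of 41.1% (total library size) to 60.5% (without BMS493 replicate 3), while the median of all genes moved between -0.04 and 0.03 on the log2 scale. The balance of the change of effect, 3279 up and 4196 down, turned to 4120 and 3171 with total library size and to 3720 and 2910 with limma on log2(TPM + 1). A replicate block gave 1070 higher and 668 lower genes changed at least 2-fold and 8637 called genes. Deviations of same-numbered libraries correlated at 0.013, 0.00399 and -0.00434. The labels do not say that a number marks a clutch or day, so whether same-numbered libraries share either is not known. A filter on the 6 NF25 libraries, added after seeing the data, gave 847 higher and 506 lower, and a fit of those 6 alone 815 and 492.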
